A study of Mus musculus with 10 samples.

Results

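The genes described here encode enzymes that remove reactive oxygen species and keep glutathione and protein thiols reduced. They were chosen by name: every probe set whose platform annotation gives 1 gene symbol of the Gst, Gpx, Prdx, Txn, Txnrd, Sod or Glrx families, or Cat, Gsr, Gclc, Gclm, Gss, Nqo1, Hmox1, Srxn1 or Txnip. This gave 52 genes with 94 probe sets, of 18193 named genes and 45037 probe sets on the array. Pancreatic islets from 5 Men1 heterozygous mice and 5 wildtype littermates were profiled, each mouse on 1 Affymetrix array. All 10 mice were female, 5 weeks old and of the strain labelled C57 on a 129 background, and about 100 islets were pooled within each mouse, not between mice. From each, 100 ng of RNA was amplified over 2 cycles before hybridisation. The wildtype mice carry no Men1 mutation by their labels. The mutant allele itself, and so the part of Men1 it lacks, is not described in the labels.

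Superoxide dismutases turn superoxide into hydrogen peroxide, which catalase, the glutathione peroxidases and the peroxiredoxins then reduce. Glutathione is made from its amino acids by glutamate-cysteine ligase and glutathione synthetase, recycled by glutathione reductase and joined to electrophiles by the glutathione transferases, while thioredoxins and glutaredoxins reduce oxidised proteins. Rodent islets are known for low catalase and glutathione peroxidase relative to liver. Men1 encodes menin, a nuclear protein that restrains the growth of endocrine cells, and its loss leads to tumours of several endocrine glands.

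Values are log2 probe set intensities as the authors normalized them, so a difference of 1 is a doubling, and every difference below is heterozygous minus wildtype. The arrays had medians of 3.3 to 3.4 and held 18458 to 18890 probe sets above a log2 value of 4. The Men1 probe set above that level (1416347_at) read 6.82, 6.09, 6.56, 6.44 and 6.17 in heterozygous mice, against 7.21, 7.18, 6.83, 6.96 and 6.25 in wildtype mice. Its means were 6.42 in heterozygous and 6.89 in wildtype islets, and the groups overlapped. The 8 beta cell markers kept of 9 named (Glp1r was not) had a mean of 12.85 to 13.40 in heterozygous and 12.78 to 13.47 in wildtype mice. Acinar enzyme genes, 14 of 14 kept, were present in all preparations, with a mean of 15.82 to 16.25 in heterozygous and 16.02 to 16.30 in wildtype mice. Most of them averaged about 16 to 17 with little spread, near the largest log2 value of 17.58. Ctrc, the dimmest, averaged 12.48 ± 0.77 in heterozygous and 13.11 ± 1.37 in wildtype islets (SD). The acinar mean may thus understate differences in acinar content between mice, here and wherever it is used below. The mean of the lymphocyte markers (7 of 12 kept, not Cd3e, Cd3d, Cd3g, Cd2 or Cd79b) stood apart in heterozygous mice 2 and 5, at 7.88 and 7.29, against at most 5.33 in the other heterozygous mice and at most 6.13 in wildtype mice. All 15 stromal markers had a lower mean in heterozygous islets, and their summary was 8.90 ± 0.70 in heterozygous and 9.58 ± 0.28 in wildtype islets (SD, n = 5 each).

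A probe set was kept for testing if it was above log2 4 on at least 5 of the 10 arrays, and a gene with several was read by its brightest. By this filter 39 of the 52 genes were kept (75%, against 57.9% of all named genes), with 63 of their 94 probe sets (67.0%, against 41.2% of all). The 13 genes that were not kept were Sod3, Gpx5, Gpx6, Gpx7, Glrx3, Gsta2, Gstm3, Gstm6, Gsto2, Gstp3, Gstt4, Hmox1 and Nqo1. Hmox1, the stress-induced haem oxygenase, averaged 3.72 in heterozygous and 3.67 in wildtype islets. Nqo1, a quinone reductase, averaged 3.35 in heterozygous and 3.24 in wildtype islets, and its highest reading was 3.71 in heterozygous mouse 4. Gstm3 read 6.04 in heterozygous mouse 2, and otherwise 2.86 to 2.89 in heterozygous and 2.81 to 2.93 in wildtype mice. The suffix of this probe set (1427474_s_at) marks probes that can also match other transcripts. The other Gstm3 probe set (1427473_at) read 1.57 to 1.61 in all mice. Glrx3 is among the 13 only by its single probe set with 1 symbol: probe sets shared by Glrx3 and Gm12669 averaged 11.76 and 8.24 in heterozygous islets, against 11.49 and 7.93 in wildtype islets, and whose RNA they measured cannot be told apart. Prdx1 has only probe sets that carry several symbols and was not analysed. Whether these levels are low for a beta cell could not be checked, since no other tissue was on the arrays, the preparations held acinar RNA, and levels of different probe sets are not comparable.

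**Figure D1:**
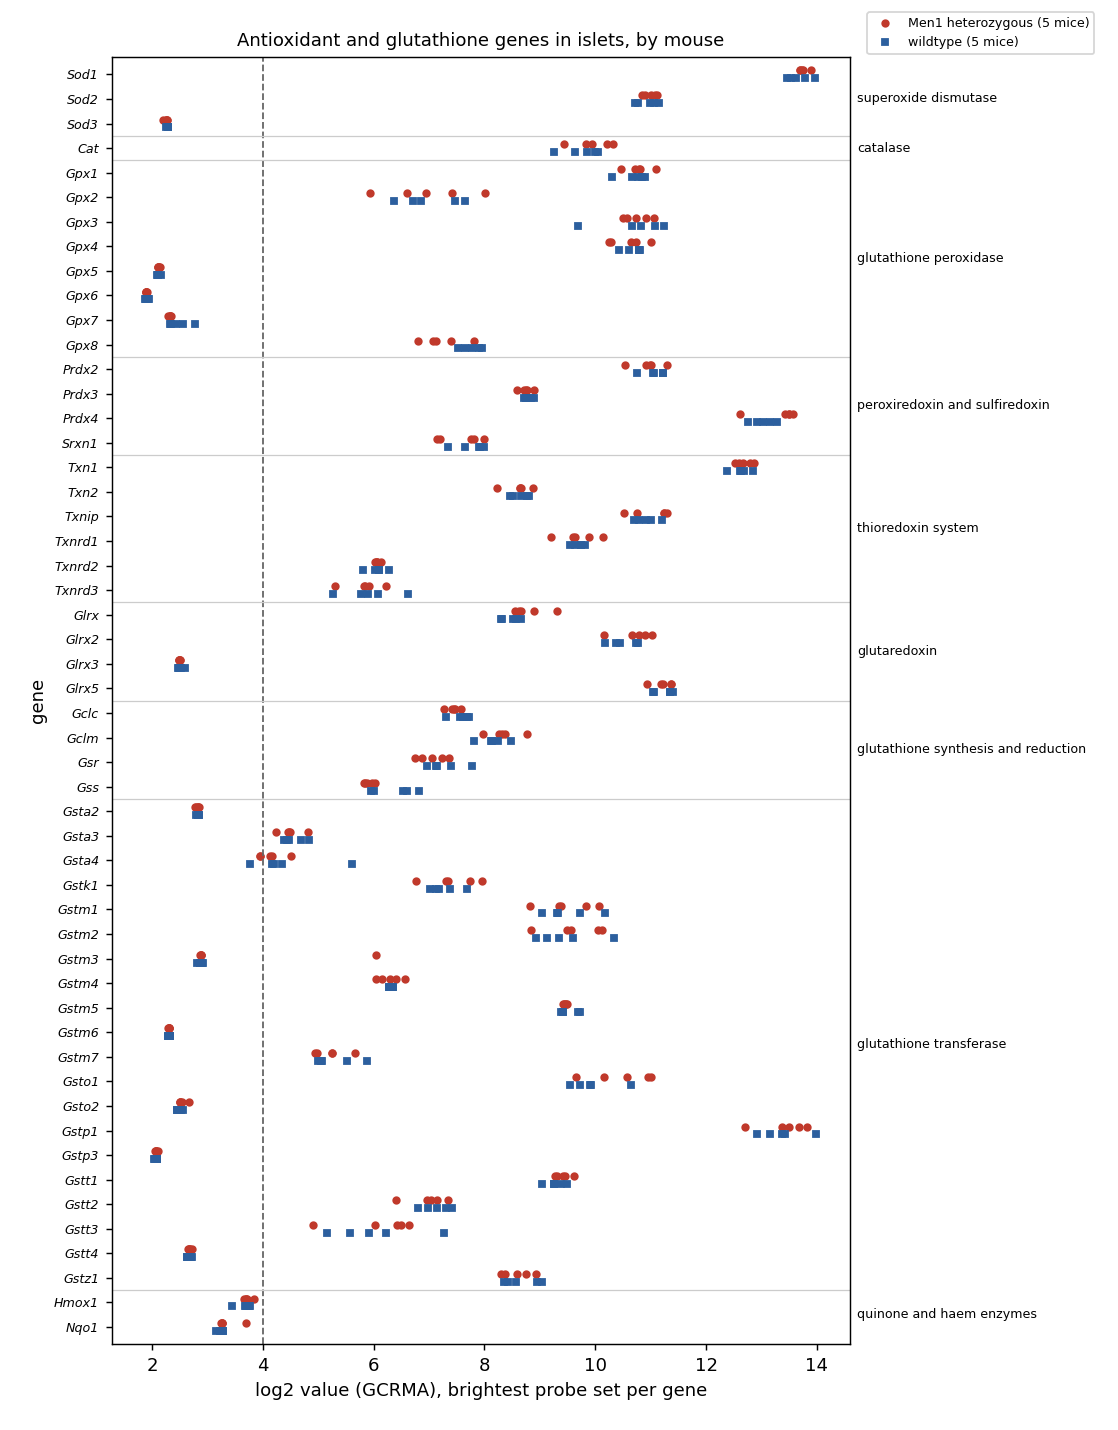
Log2 value (horizontal axis) of the brightest probe set with 1 symbol of each of the 52 genes (rows, grouped by role) in every mouse, with Men1 heterozygous mice as red circles and wildtype mice as blue squares, 5 each. The dashed line marks log2 4; the 13 genes that were not kept lie to its left, apart from Gstm3 at 6.04 in heterozygous mouse 2 (brighter probe sets that Glrx3 shares with Gm12669 are not drawn), and the genotypes overlap in each row for the 39 genes kept.

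The first question was whether losing 1 Men1 allele altered these genes in young islets. No member passed: limma found 0 of 18567 probe sets at an adjusted p under 0.05 (0%), the lowest adjusted p was 0.720, and among the members it was 0.9999. At an unadjusted p under 0.05, 4 of the 63 member probe sets were called (6.35%), 2 higher (Glrx and Gclm) and 2 lower (Gpx8 and Gss), against a background of 4.09% of all probe sets (2.57% higher and 1.52% lower). By gene, this was 3 of 39 (7.69%), against 3.67% of all genes, with 1.81% of genes higher and 1.86% lower. No member had heterozygous and wildtype values that did not overlap (0 of 63, background 0.700%). Among the 39 genes, 18 had a higher and 21 a lower mean in heterozygous islets, with a median difference of -0.02, beside a median of 0.01 over all 10538 genes, of which 54.4% were higher. By probe set, 34 of 63 were higher, against 56.4% of all probe sets. Scaling the arrays by quantile or by median turned the sign of 1 of the 39, Txnrd2, a mitochondrial thioredoxin reductase whose difference was 0.01.

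The intervals show how large a difference could have been missed. The median half-width of the 95% intervals was 0.37 over the 39 genes (range 0.19 to 0.92). For 22 genes the whole interval lay within a 1.5-fold difference in either direction, and for 38 within a 2-fold difference.

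**Figure D2:**
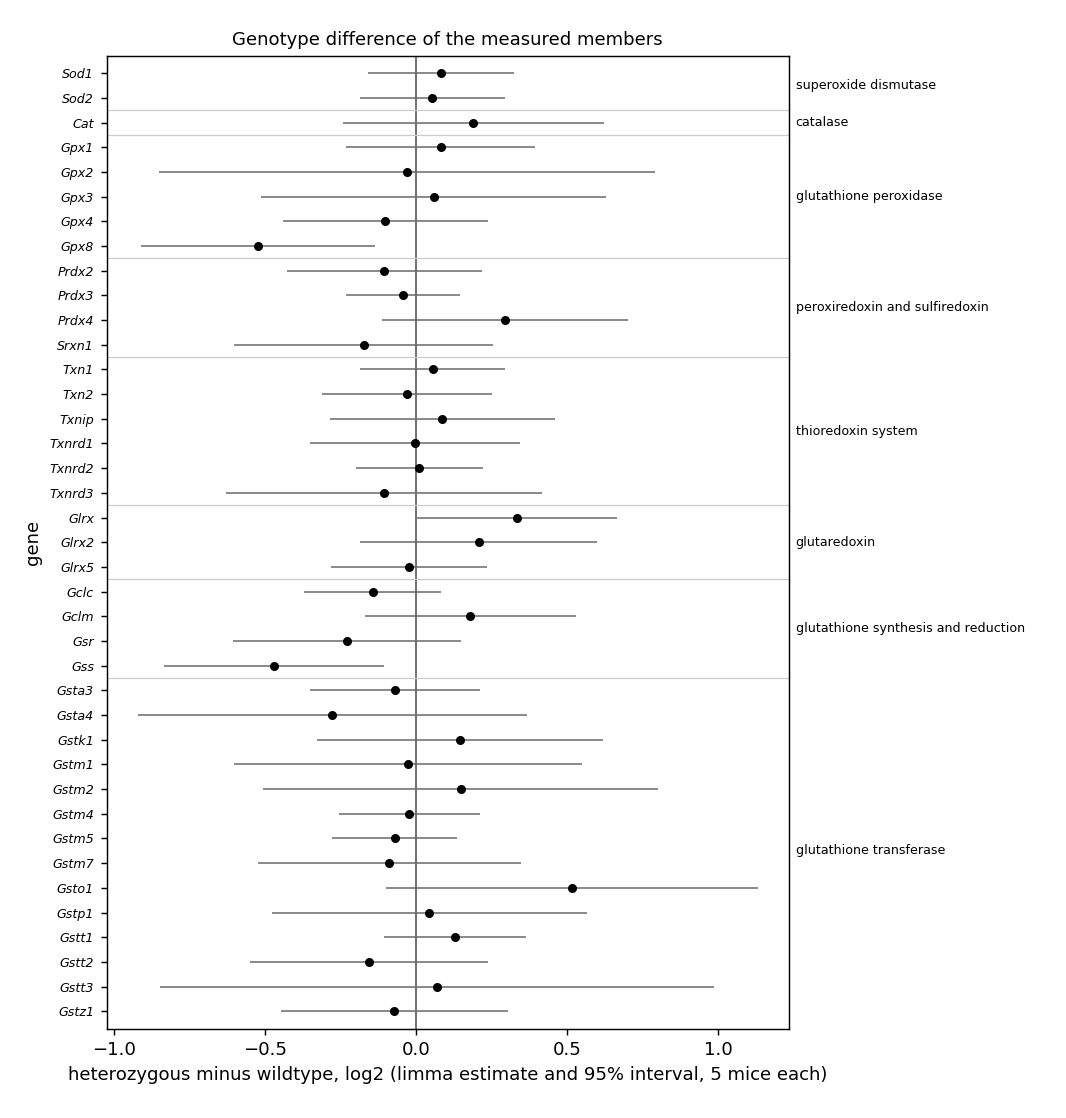
Heterozygous minus wildtype difference in log2 units (horizontal axis) for the 39 genes kept (rows, grouped by role), with points for limma's estimate and bars for its 95% interval. The estimates run between -0.52 for Gpx8 and 0.52 for Gsto1, and the intervals of Gpx8, Gss and Glrx leave out 0 before adjustment.

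Both cellular superoxide dismutases were bright. Sod1, the cytosolic copper-zinc enzyme, read 13.75, 13.70, 13.70, 13.72 and 13.90 in heterozygous mice, against 13.63, 13.53, 13.78, 13.46 and 13.96 in wildtype mice. The heterozygous values lay inside the wildtype range, and the difference was 0.08 (SE 0.11). The suffix of this Sod1 probe set (1459976_s_at) marks probes that can also match other transcripts. Sod2, the mitochondrial manganese enzyme, averaged 10.99 ± 0.11 in heterozygous and 10.94 ± 0.19 in wildtype islets (SD, n = 5 each). Another, dimmer Sod2 probe set had a difference of the other sign, -0.18. Cat, the peroxisomal catalase, read 9.93, 10.32, 10.22, 9.82 and 9.43 in heterozygous mice and 9.25, 9.99, 9.85, 9.63 and 10.05 in wildtype mice. The groups overlapped, and the 95% interval of the 0.19 difference ran from -0.24 to 0.62.

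Of the 8 glutathione peroxidases named, 5 were kept, 2 with a higher and 3 with a lower mean in heterozygous islets. Gpx8, a peroxidase of the endoplasmic reticulum membrane (1424099_at, chromosome 13), had the smallest p of the members. It read 6.81, 7.39, 7.07, 7.81 and 7.12 in heterozygous mice, against 7.53, 7.95, 7.91, 7.78 and 7.65 in wildtype mice. In 4 of 5 heterozygous mice it was below every wildtype mouse, and heterozygous mouse 4 lay within the wildtype range. The difference was -0.52 (SE 0.18, 95% interval -0.91 to -0.14), or 69.5% of the wildtype level, with an unadjusted limma p of 0.0124, an adjusted p of 0.9999 and a two-sided exact permutation p of 0.0397 over all assignments of 5 of the 10 mice. Gpx8 followed the stromal markers from mouse to mouse, with Pearson's r 0.894 and Spearman's rho 0.903 over 10 mice (permutation p 0.00075 and 0.00081, adjusted over 156 relations 0.0390 and 0.0316). Without heterozygous mice 1 and 3, which lie farthest out in stromal signal, r was 0.821, and within genotypes it was 0.839. Of 10523 genes outside the list, 0.979% had an r with the stromal mean at least as high. Heterozygous mouse 4, the 1 with wildtype-like Gpx8, also had the highest stromal mean of all 10 mice, 10.01. With the stromal mean as a covariate the Gpx8 difference was -0.21, with an unadjusted limma p of 0.182. In whole islets, fewer cells of a type and less RNA per cell cannot be told apart.

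The other glutathione peroxidases lay closer together. Gpx1, the widespread cytosolic form, averaged 10.77 ± 0.22 in heterozygous and 10.69 ± 0.24 in wildtype islets (SD, n = 5 each). Gpx4, which reduces lipid peroxides in membranes, averaged 10.58 ± 0.32 in heterozygous and 10.68 ± 0.16 in wildtype islets. Gpx3, the secreted form, averaged 10.76 ± 0.23 in heterozygous and 10.70 ± 0.61 in wildtype islets, the wider spread coming from wildtype mouse 5 at 9.69. That mouse had the highest acinar mean, 16.30. Over 10 mice Gpx3 had r -0.742 and rho -0.939 with the acinar mean (permutation p 0.0235 and 0.00024, adjusted 0.176 and 0.0187), so it passed by rho and not by r. Gpx2, best known from gut epithelium, ranged from 5.94 to 8.0 in heterozygous and from 6.36 to 7.65 in wildtype mice. Its residual SD of 0.67 put it at the 97.4th percentile of all genes for spread, with a difference of -0.03.

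**Figure D3:**
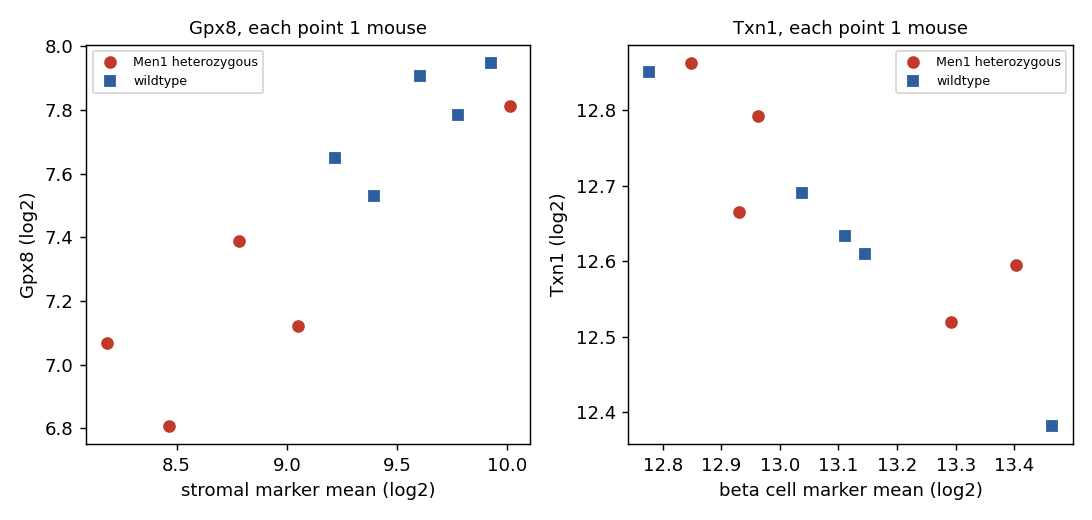
Log2 value of a gene (vertical axes) against a marker mean of the same mouse in log2 units (horizontal axes), 1 point per mouse, with Men1 heterozygous mice as red circles and wildtype mice as blue squares. Left, Gpx8 is high where the mean of the stromal markers is high (r 0.894); right, Txn1 is low where the mean of the beta cell markers is high (r -0.913).

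Peroxiredoxins 2, 3 and 4 and Srxn1, the sulfiredoxin that repairs over-oxidised peroxiredoxins, were all kept. Prdx4, the peroxiredoxin of the endoplasmic reticulum (chromosome X), read 13.50, 13.50, 13.56, 13.42 and 12.62 in heterozygous mice, against 12.75, 13.28, 12.92, 13.14 and 13.03 in wildtype mice. Heterozygous mice 1 to 4 were above every wildtype mouse, and heterozygous mouse 5 was below all of them. The difference was 0.29 (SE 0.18), with an unadjusted limma p of 0.140 and an exact permutation p of 0.175. It was 0.47 without heterozygous mouse 5, and also 0.47 without mice 2 and 5. The 2 other kept Prdx4 probe sets had differences of 0.14 and 0.01. Prdx3, the mitochondrial form, averaged 8.74 ± 0.11 in heterozygous and 8.79 ± 0.08 in wildtype islets, with a spread at the 4.49th percentile of all genes.

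Srxn1 read 7.76, 7.82, 7.19, 7.15 and 8.0 in heterozygous mice, against 7.90, 7.65, 7.92, 7.99 and 7.34 in wildtype mice. These values are from its only kept probe set (1426875_s_at), whose suffix marks probes that can also match other transcripts. The groups overlapped over most of their range, and the difference was -0.17 (SE 0.19). The low heterozygous mice, 3 and 4, had the widest gap between the 3′ and 5′ control probe sets of Gapdh and Actb, 3.56 and 3.59, against 3.21 to 3.37 in wildtype mice. This gap grows as amplified RNA gets shorter. Over 10 mice Srxn1 had r -0.902 and rho -0.794 with it (permutation p 0.00075 and 0.00902, adjusted 0.0390 and 0.108), so it passed by r and not by rho. Without those mice r was -0.723, and 0.0569% of all genes had an r at least as low. With the gap as a covariate the Srxn1 difference was 0.09, the other sign.

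All 6 thioredoxin system genes were kept, 3 with a higher and 3 with a lower mean in heterozygous islets, between -0.11 and 0.09. Txn1, the cytosolic thioredoxin, read 12.52, 12.86, 12.67, 12.79 and 12.60 in heterozygous mice, against 12.61, 12.85, 12.38, 12.69 and 12.63 in wildtype mice. Its genotype difference was 0.05 (95% interval -0.19 to 0.29). It ran opposite to the mean of the 8 beta cell markers, with r -0.913 and rho -0.939 over 10 mice (permutation p 0.00029 and 0.00022, adjusted 0.0390 and 0.0187). Without heterozygous mouse 5 and wildtype mouse 3, which had the highest beta cell means and lay farthest from the median, r was -0.928, and within genotypes -0.923. Of 10530 genes outside that list, 0.114% had an r at least as low. Txnrd1, the cytosolic reductase of thioredoxin, averaged 9.69 ± 0.35 in heterozygous and 9.70 ± 0.11 in wildtype islets. Txnip, which binds and inhibits thioredoxin and responds to glucose in beta cells, averaged 11.01 ± 0.35 in heterozygous and 10.92 ± 0.20 in wildtype islets. Its second probe set had a difference of -0.22, so its sign depends on the probe set.

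Glrx, the cytosolic glutaredoxin (1416592_at, chromosome 13), read 8.63, 8.89, 8.55, 8.66 and 9.31 in heterozygous mice, against 8.66, 8.29, 8.57, 8.52 and 8.32 in wildtype mice. The 2 highest readings were heterozygous mice 5 and 2, the mice with the highest lymphocyte marker means (7.29 and 7.88). Wildtype mouse 5, next in lymphocyte mean at 6.13, read 8.32. The other heterozygous mice lay in the wildtype range or at its upper edge. The difference was 0.33 (SE 0.15), with an unadjusted limma p of 0.0483, an adjusted p of 0.9999 and an exact permutation p of 0.0556. It was 0.21 without heterozygous mouse 5 and 0.14 without mice 2 and 5, and with the mean of the lymphocyte markers as a covariate it was 0.23 (unadjusted limma p 0.135). Whether the Glrx readings have to do with lymphocytes was not tested. Glrx2, the mitochondrial glutaredoxin, averaged 10.71 ± 0.34 in heterozygous and 10.50 ± 0.26 in wildtype islets, and its 3 probe sets had differences between 0.05 and 0.21. The Glrx2 difference of 0.21 was 0.35 without heterozygous mouse 5 and 0.13 without heterozygous mouse 2 or wildtype mouse 3.

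The 4 genes of glutathione synthesis and reduction were all kept. Gss, glutathione synthetase, read 6.03, 5.88, 5.96, 5.83 and 5.85 in heterozygous mice on its brighter probe set (1441931_x_at), against 6.54, 6.0, 6.60, 5.96 and 6.81 in wildtype mice. All heterozygous readings were in a narrow low band shared by wildtype mice 2 and 4, and wildtype mice 1, 3 and 5 lay above it. The difference was -0.47 (SE 0.16, unadjusted limma p 0.0159, adjusted p 0.9999, exact permutation p 0.0397). The other Gss probe set (1448273_at) averaged 4.95 ± 0.04 in heterozygous and 4.93 ± 0.05 in wildtype islets, a difference of 0.01 (SE 0.07), so the 2 probe sets disagree. The suffix of the brighter one marks probes that can also match other transcripts.

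Glutamate-cysteine ligase catalyses the rate-limiting step. Its catalytic subunit Gclc averaged 7.44 ± 0.11 in heterozygous and 7.58 ± 0.17 in wildtype islets (difference -0.14, SE 0.10). Its modifier subunit Gclm averaged 8.34 ± 0.28 in heterozygous and 8.16 ± 0.24 in wildtype islets, a difference of 0.18 (SE 0.16) that was 0.07 without heterozygous mouse 5, 0.09 without wildtype mouse 4 and 0.27 without heterozygous mouse 3. A second Gclm probe set (1418627_at) averaged 8.29 ± 0.07 in heterozygous and 8.07 ± 0.14 in wildtype islets, a difference of 0.21 (SE 0.09, unadjusted limma p 0.0402, adjusted p 0.9999, exact permutation p 0.0159). The subunits thus had differences of opposite sign, neither past the adjusted threshold. Gsr, glutathione reductase, averaged 7.05 ± 0.25 in heterozygous and 7.28 ± 0.32 in wildtype islets, a difference of -0.23 (SE 0.17) that was -0.10 without wildtype mouse 1 and -0.15 without heterozygous mouse 4.

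Of 20 glutathione transferases, 14 were kept, 6 with a higher and 8 with a lower mean in heterozygous islets. Gsto1, an omega-class enzyme that also reduces dehydroascorbate (chromosome 19), had the highest difference of the 39 genes kept. It read 10.58, 10.94, 11.01, 10.15 and 9.65 in heterozygous mice, against 9.73, 10.65, 9.55, 9.92 and 9.91 in wildtype mice. Heterozygous mice 2 and 3 were above every wildtype mouse, and the rest overlapped. The difference was 0.52 (SE 0.28), with an unadjusted limma p of 0.0924 and an exact permutation p of 0.127. The suffix of this probe set (1456036_x_at) marks probes that can also match other transcripts, and the second Gsto1 probe set had a difference of 0.37. Gstt1, a theta-class enzyme, averaged 9.41 ± 0.13 in heterozygous and 9.28 ± 0.17 in wildtype islets, a difference of 0.13 that was 0.07 without wildtype mouse 5 and 0.08 without heterozygous mouse 2. Gsta4, which conjugates the lipid peroxidation product hydroxynonenal, averaged 4.14 ± 0.23 in heterozygous and 4.42 ± 0.70 in wildtype islets, with wildtype mouse 4 alone at 5.62.

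Gstp1, the pi-class transferase, was bright in every mouse and read 13.50, 13.82, 13.68, 13.37 and 12.70 in heterozygous mice, against 13.36, 13.98, 13.16, 13.42 and 12.92 in wildtype mice. Gstm1, a mu-class enzyme, read 9.38, 10.07, 9.82, 9.35 and 8.83 in heterozygous mice, against 9.31, 10.18, 9.32, 9.73 and 9.04 in wildtype mice. Neither differed by genotype beyond its spread (Gstp1 0.04, SE 0.24; Gstm1 -0.03, SE 0.26). Another Gstm1 probe set had the other sign, 0.02, and the suffix of the brightest one (1416416_x_at) marks probes that can also match other transcripts. In both genes heterozygous mouse 2 and wildtype mouse 2 were highest in their groups. Gstt3, a theta-class enzyme, ran between 4.90 and 6.64 in heterozygous and between 5.17 and 7.28 in wildtype mice, a residual SD of 0.76 at the 98.5th percentile of all genes.

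The values also varied between mice of the same genotype, and several members shared this variation. Of the 741 pairs among the 39 genes, 14 passed an adjusted permutation p under 0.05 by both Pearson's r and Spearman's rho over 10 mice (1.89%), all positive. They joined 8 genes: Gstk1, Glrx2, Gstm1, Gstm2, Gstp1, Gstt3, Gsto1 and Prdx4. For these pairs r was 0.874 to 0.976 and rho 0.903 to 0.988, with adjusted p of 0.00370 to 0.0457 for r and 0.00370 to 0.0296 for rho, where 1e-05 is the smallest raw p that the permutations can give. Leaving out the 2 mice farthest from the median gave r of 0.700 to 0.974, and r within genotypes was 0.891 to 0.981. Among all 55519453 pairs of kept genes, 0.0748% had r and rho at least as high as the weakest of the 14 pairs. By that measure, which uses no adjusted p, the member pairs numbered 15 of 741. The strongest was Gstm2 with Gstp1, a mu-class and a pi-class transferase on chromosomes 3 and 19, at r 0.976 and rho 0.988. Gstm1 and Gstm2 are neighbouring paralogues whose probes may share targets, so their own pair (r 0.964) is uncertain, whereas Gstp1, Gstt3, Gstk1 and Gsto1 are of other classes.

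The mean deviation of the 8 genes from their own 10-mouse means was 0.15, 0.51, 0.46, -0.004 and -0.67 in heterozygous mice 1 to 5, against -0.24, 0.54, -0.43, 0.04 and -0.36 in wildtype mice 1 to 5. All 8 genes were above their mean in heterozygous mice 2 and 3 and wildtype mouse 2, and all 8 below it in heterozygous mouse 5 and wildtype mice 1, 3 and 5. High and low mice thus occurred in both genotypes, and the group means were 0.09 in heterozygous and -0.09 in wildtype mice. The set was taken from these same values, so it carries no test of its own. Each of the 8 ran opposite to the beta cell markers (r -0.838 to -0.618) and with the acinar markers (r 0.524 to 0.700). None of those 16 relations passed by both r and rho. Gstk1 with the beta cell markers passed by rho and not by r (rho -0.879, permutation p 0.00143, adjusted 0.0446, and adjusted 0.0967 for r). The part of cell composition in the shared pattern was not tested.

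**Figure D4:**
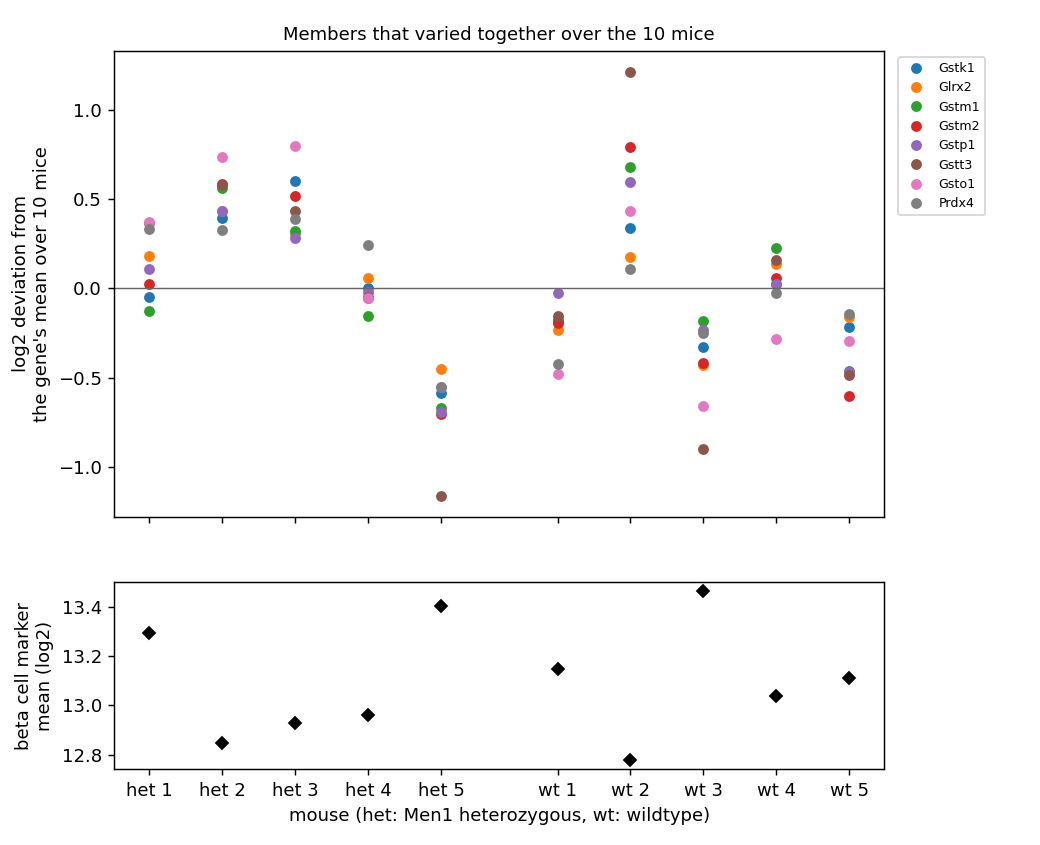
Upper panel: deviation of the 8 genes from their own mean over the 10 mice, in log2 units, with 1 colour per gene and 1 column per mouse (het, Men1 heterozygous; wt, wildtype). Lower panel: mean of the 8 beta cell markers in the same mice, in log2 units. The mean deviation is highest in wildtype mouse 2 (0.54) and heterozygous mouse 2 (0.51), where the beta cell mean is lowest, and lowest in heterozygous mouse 5 (-0.67).

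Many genes of this kind are switched on by Nrf2 through the antioxidant response element, so the starts of the genes were read from RefSeq (assembly GRCm38.p6). Windows of 250 bases before to 50 after a start were found for 46 of the 52 genes, 63 windows in all. The element's core, TGACNNNGC on either strand, was in 7 of the 63 windows (11.1%, against 12.4% of all 32851 windows): those of Gclm, Gsta3, Gstm5, Gstm7, Sod1, Srxn1 and Txnrd1. The AP-1 letters TGANTCA, which read the same on both strands and can overlap an antioxidant response element, were in 7.94% of member windows and 7.81% of all. The GC box GGGCGG was in 57.1% of member windows and 35.7% of all, and TATAAA in 12.7% and 13.6%, each searched on both strands. A match of letters is not a binding site, and none of the windows was measured here. Sites farther from a start, or of other spelling, were not searched for. A window without a match thus does not show that a gene lacks the element.

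The first 4 stretches below are the 100 bases before a start of 4 transferases whose pairs with one another all passed, shown because their values run in parallel from mouse to mouse. For Gstm1 and Gstt3, which have 2 such starts in RefSeq, 1 is shown. The stretch before the other start held none of the searched letters in either gene, so TATAAA in Gstm1 belongs to the start shown. They lie on the minus strand at chr3:108017819-108017918 (Gstm1), chr3:107986421-107986520 (Gstm2), chr19:4037913-4038012 (Gstp1) and chr10:75781423-75781522 (Gstt3). The last 2, around the antioxidant response element core of Gclm and Txnrd1, lie on the plus strand at chr3:122245397-122245457 and chr10:82859088-82859148. Capitals mark TATAAA at position -30 in Gstm1, TGAGTCA at -74 and GGGCGG at -60 in Gstp1, and the core read on the other strand (GCNNNGTCA) at -134 in Gclm and -92 in Txnrd1, counted from the start.
Gstm1: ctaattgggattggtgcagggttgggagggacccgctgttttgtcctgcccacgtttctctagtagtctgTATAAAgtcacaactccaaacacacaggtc
Gstm2: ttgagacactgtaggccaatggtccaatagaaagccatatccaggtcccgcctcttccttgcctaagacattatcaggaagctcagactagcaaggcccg
Gstp1: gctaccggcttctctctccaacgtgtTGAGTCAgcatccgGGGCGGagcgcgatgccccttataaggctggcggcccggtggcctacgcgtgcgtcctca
Gstt3: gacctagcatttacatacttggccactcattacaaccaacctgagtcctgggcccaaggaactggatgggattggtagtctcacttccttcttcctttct
Gclm: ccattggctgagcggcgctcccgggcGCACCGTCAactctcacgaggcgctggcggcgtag
Txnrd1: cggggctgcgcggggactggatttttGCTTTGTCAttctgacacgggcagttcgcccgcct
Of the 4 transferases, Gstm2 and Gstt3 held none of the 4 motifs in the stretch shown. Gclm and Txnrd1, which hold the core, had genotype differences of 0.18 and -0.004 and were not among the 8 genes that varied together.

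Genes that act with the members were counted in 7 further lists. Only genes kept by the filter were counted, and 0 of those passed in any list by limma. Of 12 regulators of the Nrf2 pathway, 5 were higher and 7 lower in heterozygous islets. Nfe2l2, which encodes Nrf2 itself, averaged 8.48 ± 0.26 in heterozygous and 8.81 ± 0.08 in wildtype islets, a difference of -0.34 (SE 0.13, unadjusted limma p 0.0227, adjusted p 0.9999), and its other probe set had the other sign. Bach2, a repressor that competes for the same elements, had a difference of 0.36 (SE 0.24). Of 15 further Nrf2 targets, 8 were higher and 7 lower. The smallest p there were those of Ephx1, an epoxide hydrolase (-0.28, SE 0.13), and Cbr3, a carbonyl reductase (-0.57, SE 0.28).

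Of 18 other genes of glutathione metabolism and transport, 12 were higher and 6 lower. Mgst1, a membrane-bound glutathione transferase, had a difference of -0.42 (SE 0.21), and Slc3a2, the heavy chain of the cystine transporter, 0.24 (SE 0.14). Of 23 other thiol redox genes, 13 were higher and 10 lower, led by Sesn2, a stress-induced sestrin (0.37, SE 0.14, unadjusted limma p 0.0250), and Nnt, which makes mitochondrial NADPH (0.27, SE 0.13). Of 10 genes of metal and radical handling, 5 were higher and 5 lower, with Vdac1, a mitochondrial outer membrane channel, at 0.18 (SE 0.08) and a probe set of the other sign, and Mt1, a metallothionein, at -0.21 (SE 0.27). Of 17 genes of selenoproteins and their synthesis, 11 were higher and 6 lower, with Selenon, a selenoprotein of the endoplasmic reticulum, at -0.24 (SE 0.13) and Sephs1, a selenophosphate synthetase homologue with a probe set of the other sign, at 0.17 (SE 0.11). Of 9 oxidant-producing genes, 6 were higher and 3 lower, with the NADPH oxidase subunits Cyba at -0.50 (SE 0.26) and Ncf1 at 0.22 (SE 0.12). Unadjusted limma p was under 0.05 for 1 of the 23 thiol redox genes, higher (Sesn2), and 1 of the 12 regulators, lower (Nfe2l2). No gene of the other 5 lists was called, and the background was 1.81% higher and 1.86% lower over all genes. Cyba and Ncf1, of opposite sign here, are abundant in macrophages. The macrophage marker mean was 6.38 ± 0.38 in heterozygous and 6.74 ± 0.16 in wildtype islets (8 of 11 kept, not Cd68, C1qc or Itgam). Of the 8 markers, 6 were lower and 2 higher in heterozygous islets, and the part of macrophages was not tested.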

How the data were processed

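Islet RNA of 10 mice was measured on 1 Affymetrix array each. The deposited log2 values were made by the authors with GCRMA, per the submitters' processing notes, a method that models background from the bases of each probe, equalises the arrays and compresses dim signals, so differences of dim probe sets are understated. No genome build is given with the values. Groups and replicate numbers came from the sample titles. Of the probe sets, 34945 carry 1 symbol in the platform annotation, 932 carry several and were not named (10 of these include a member), and 9160 are unnamed here, while 64 control probe sets were left out. Symbols of all 52 members matched RefSeq by gene identifier.

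From these values, 18567 probe sets above log2 4 on at least 5 of 10 arrays were fitted with limma 3.58.1 (lmFit and eBayes, R 4.3.3), with Benjamini-Hochberg adjustment over all of them and a threshold of 0.05. Single genes also had a two-sided exact permutation test over all assignments of 5 of the 10 mice, whose smallest p is 0.00794. Correlations over mice used 100000 permutations, adjusted over 156 gene and marker relations and over 741 member pairs. The fit was tested on simulated data. Named genes are the 10 with the smallest p, a fixed core, and the 2 of each further list with the smallest p; genes of the pairs that varied together, those of extreme spread and Gstm3 were singled out after looking at their values. The members and lists were chosen with earlier results of these data known. The alternatives covered filters, scaling, variance prior, array weights, a replicate block, marker and RNA quality covariates, and left-out mice. The number of arrays limits the precision, and nothing in the labels records a batch.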

Additional observations from a re-analysis of the deposited data

Results flagged for a closer look

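Each of 80 groups of 5 mice (40 member genes above log2 4 on any array, 2 genotypes) was searched for a mouse far from the others. The measure was Dixon's ratio, the gap to the nearest mouse divided by the range of the group. In 3 groups it exceeded the critical value of 0.71 (0.992 for Gstm3, 0.848 for Prdx4 and 0.758 for Sod1). Chance alone marks about 1 in 20 groups. The count of 3 in 80 groups does not exceed that rate. All 3 readings came from heterozygous mice. Gstm3, a mu-class transferase, read 6.04 in heterozygous mouse 2, where the next heterozygous mouse read 2.89. The other Gstm3 probe set (1427473_at) read 1.59 in that mouse, so it did not share the high reading. Prdx4 read 12.62 in heterozygous mouse 5, below 13.42 in the next, and its other kept probe sets were also lowest there, at 11.72 and 10.70. Sod1 read 13.90 in heterozygous mouse 5, above 13.75 in the next, and within the wildtype range, which reached 13.96. The other kept Sod1 probe sets (1451124_at and 1435304_at) did not single out that mouse. There they read 11.79 and 7.35, against 11.79 to 12.10 and 7.33 to 7.60 in the other heterozygous mice. Heterozygous mice 2 and 5 are also the mice with high lymphocyte markers (7.88 and 7.29), and whether these readings have to do with them was not tested.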

How the results depend on the processing

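Across the 23 alternatives limma again called 0 probe sets or genes at an adjusted p under 0.05, with 415 to 1097 at an unadjusted p under 0.05. The number of member probe sets at an unadjusted p under 0.05, 4 as reported, was 9 with the acinar covariate (background 5.87%), and 2 with the stromal (3.44%) or lymphocyte (3.51%) covariate or the replicate block (4.23%). Leaving out 1 mouse gave 2 to 7, with 2 without heterozygous mouse 2 (background 4.03%) or wildtype mouse 3 (4.04%) and 7 without heterozygous mouse 5 (4.35%). Member probe sets without overlap, 0 as reported, numbered 0 to 2 with 1 mouse left out (2 without wildtype mouse 5, background 2.03%, and 1 without heterozygous mouse 1, 4 or 5 or wildtype mouse 4, backgrounds between 1.08% and 1.80%) and 1 without heterozygous mice 2 and 5 (background 2.32%). The median member difference ran from -0.05 to 0.05, so its sign is not settled. The 10 genes of smallest p kept their direction in all 229 values, though leaving out 1 mouse moved Glrx, Prdx4, Glrx2, Gclm, Gsr and Gstt1 by over 1.5 times, as given beside each. Those 10 genes were picked by p from these same values, so their kept direction carries no test of its own. Of the other 13 named genes none moved by more than 1 SD in 298 values, but 11 changed sign in at least 1 (all but Cat and Sod1). Gss and Gsta4 were too dim for the stricter filter of log2 6 and have no value there. Same-numbered mice had correlations of deviations of -0.28 to 0.11 over all kept probe sets. Such weak values cannot exclude that the numbers pair the samples. The replicate block changed no adjusted call. The cause of these shifts was not tested.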
